A study of Mus musculus with 53 samples.

Results

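Primary microcephaly is a condition in which the brain, and above all the cerebral cortex, is small from birth while its plan is largely kept. The genes described here are 10 of those whose loss causes it in people, given as their mouse counterparts: Aspm, Cenpj, Cdk5rap2, Mcph1, Wdr62, Cep152, Cep135, Stil, Nde1 and Cit. They were listed by name and not by a limit on their values, though with earlier results of these data known. All 10 were found among the 37991 gene IDs listed. As deposited, values are per kilobase of the whole gene with its introns. On that scale 0 of 10 reached 1 RPKM, beside 18.8% of all gene IDs and 31.6% of protein-coding genes. The median span was 53.2 kb for the 10 genes and 18.7 kb for protein-coding genes. Per kilobase of exon, levels ran from 0.808 for Cit to 9.02 for Nde1, and 9 of 10 reached 1, beside 54% of protein-coding genes.

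Most of their proteins work at the centrosome, the organelle that organises microtubules, which is built around a pair of centrioles. Radial glia, the stem cells of the embryonic cortex, divide at the ventricle, and a spindle that is badly built or badly placed there leads to fewer progenitors and fewer neurons. Cep152, Stil, Cenpj and Cep135 act in making new centrioles, Cdk5rap2 in the material around them, Aspm, Wdr62 and Nde1 at the spindle and its poles, Mcph1 in the timing of chromosome condensation and Cit in the last step of division.

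The series sequenced RNA of 53 mouse libraries in 19 groups of cultured cortical neurons, cultured astrocytes, adult hippocampus and embryonic cortex, around the question of histone turnover in neurons. The embryonic cortex group, the one used here, was cortex of C57bl/6 mice at E16.5, late in the making of cortical neurons, with no stimulation, no transgene and no construct named in the labels. It has 3 libraries. The remaining 50 libraries, in 18 groups, were not used here, and there is thus no comparison between groups. No source used here says whether each library came from a separate animal or from pooled ones.

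The deposited value of a gene is the authors' mean over the 3 libraries in RPKM, reads per kilobase and per 1000000 reads of the library. The kilobases in it are those of the whole gene with its introns: of multi-exon genes whose lowest values correspond to exactly 1 read, 561 did so with the distance between gene ends, and 0 with the length of the exons. Because the values were printed to 15 digits, the whole reads behind a mean could be solved for, library by library, in all 10 genes. For Aspm, Stil and Cenpj this took a length other than the gene span, found by trying several, so their reads are less certain. The libraries had totals of 71.6, 64.8 and 51.3 M reads and are called A, B and C in that order, since nothing ties a total to a label. A level "as deposited" below is per kilobase of gene span, and a "per-exon level" is RPM, reads per 1000000 reads of the library, per kilobase of annotated exon. The second is comparable between genes only as far as the reads lay in exons, which was not tested. The 3 values of a gene are given as they are, with no SD, since the libraries could not be tied to their labels and may not be separate animals. No test was made, since 1 group is used.

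The markers of cortex were all there. The 10 genes of the cortical tissue list ran from Pax6 at 1.57 RPKM to Neurod6 at 194 RPKM as deposited. Of the 7 genes for choroid plexus and meninges, 0 reached 1 RPKM, with Foxc1 highest at 0.436 and Kl lowest at 0.00104 RPKM. The tissue was mixed. Neurons (10 of 10 markers at a per-exon level of 1 or more, median 68.5, from Rbfox3 at 0.167 to Neurod6 at 194 RPKM as deposited) stood beside radial glia (10 of 10, median 9.09, from Hopx at 0.205 to Fabp7 at 102 RPKM as deposited), intermediate progenitors (6 of 6, median 20.8, from Mfng at 1.69 to Neurog2 at 29.7 RPKM) and cells with ganglionic eminence or interneuron genes (6 of 7, median 6.47, from Nkx2-1 at 0.192 to Dlx1 at 17.8 RPKM). Red blood cell genes ran from Slc4a1 at 0.0414 to Hba-a1 at 53.6 RPKM, microglial genes from P2ry12 at 0.0714 to C1qc at 1.03 RPKM, and endothelial genes from Tek at 0.0539 to Cldn5 at 17.3 RPKM. In such bulk tissue, fewer cells that express a gene and less of its RNA in each cell cannot be told apart.

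As deposited, the order of the 10 genes was Nde1 (0.975 RPKM), Aspm (0.965), Cdk5rap2 (0.537), Cenpj (0.505), Cep135 (0.314), Stil (0.250), Wdr62 (0.198), Cep152 (0.190), Cit (0.0811) and Mcph1 (0.0595), with a median of 0.282 RPKM. Of the 10 genes, 6 were above the median of the 20230 protein-coding genes, 0.213 RPKM, and 4 below it. The highest value was 16.4 times the lowest.

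The genes differ greatly in how much of their length is intron, and the deposited scale carries that. Aspm keeps 29.5% of its 39.3 kb span in exons, and Mcph1 3.75% of its 208 kb. The median of this share over protein-coding genes was 19.7%. Per kilobase of exon the order became Nde1 (9.02), Cdk5rap2 (7.98), Cenpj (4.67), Aspm (3.27), Cep135 (2.52), Cep152 (2.05), Stil (1.86), Mcph1 (1.59), Wdr62 (1.39) and Cit (0.808), with a median of 2.29. Of the 10 genes, 8 lay above the median of protein-coding genes, 1.57, and 2, Wdr62 and Cit, below it. Aspm moved from rank 2 to rank 4 and Mcph1 from rank 10 to rank 8. The spread narrowed to 11.2 times between the highest and the lowest.

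Whether neighbours keep their order within each library, on a given length scale, can be read from the libraries. On the per-exon scale each of the 9 neighbouring pairs kept its order in 3 of 3 libraries, the closest being Cep152 over Stil at a ratio of 1.10. A kept order does not mean that the ranges over the libraries are apart. Stil in library A, at 2.08, was above Cep152 in library B, at 2.00. As deposited, Nde1 over Aspm (ratio 1.01) and Wdr62 over Cep152 (ratio 1.04) held in 2 of 3 libraries, so the order of these neighbours varied between libraries. The other 7 neighbouring pairs held in 3 of 3. The order between genes still depends on the length used. Per kilobase of coding sequence, among others, Cep152 (2.27) was below Stil (2.85) and Stil below Mcph1 (5.02).

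**Figure D1:**
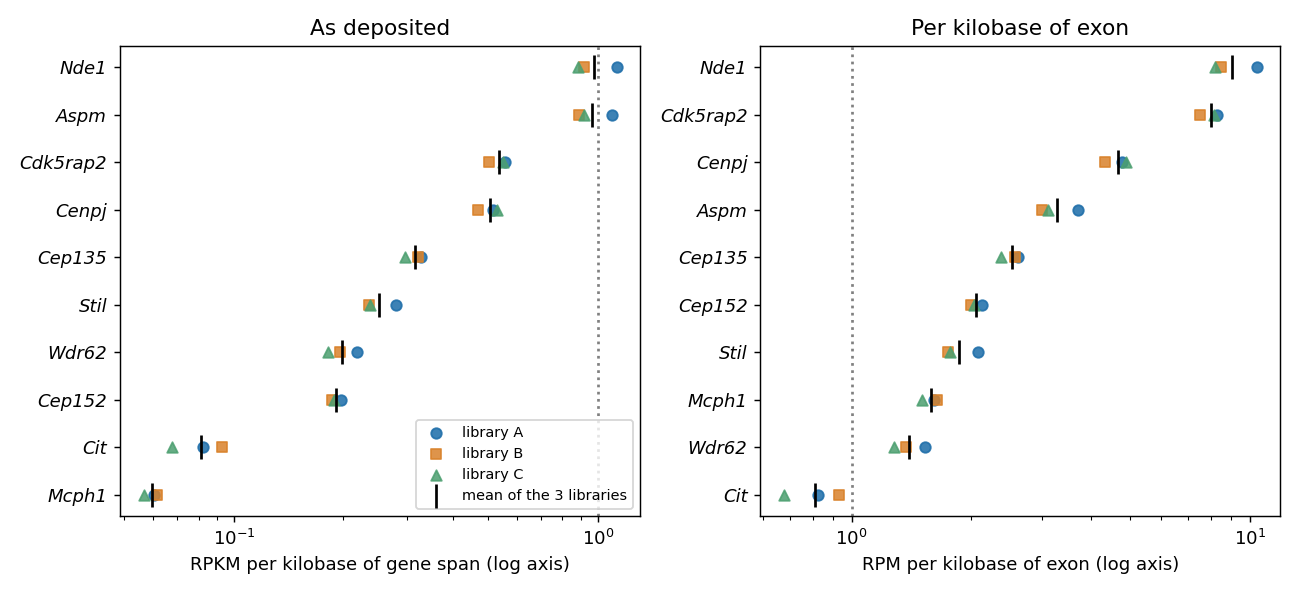
Level of each of the 10 genes in libraries A, B and C (symbols) with the mean of the 3 libraries (black tick), per kilobase of gene span as deposited (left) and per kilobase of exon (right), on log axes with a dotted line at 1. No mean reaches 1 on the left and 9 of 10 do on the right. The symbols of a gene lie close together beside the whole range over the 10 genes, though those of some neighbours overlap.

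Making a new centriole starts with Cep152, which together with Cep192 brings the kinase Plk4 to the wall of the old centriole. Cep152 (ENSMUSG00000068394, chromosome 2, 28 exons in 62.0 kb) had 876, 746 and 600 reads in libraries A, B and C. That is 12.2, 11.5 and 11.7 RPM, the narrowest spread of the 10 genes, with the highest library at 1.06 times the lowest. The exact Poisson 95% intervals of these values, which cover counting error only, overlapped: 11.4 to 13.1 in A and 10.7 to 12.4 in B. Its per-exon level of 2.05 stood beside 3.44 for Cep192, 2.52 for Plk4 and 2.97 for Cep63, which also binds Cep152.

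Stil is phosphorylated by Plk4 and then brings in Sass6, the protein of the cartwheel that sets the centriole's symmetry. Stil (ENSMUSG00000028718, chromosome 4, 18 exons in 43.0 kb) had 861, 656 and 524 reads in libraries A, B and C, or 12.03, 10.1 and 10.2 RPM. Library A stood above the other two, and its interval of 11.2 to 12.9 did not overlap that of B, 9.36 to 10.9. The per-exon level of Stil was 1.86 and that of Sass6 was 2.02.

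Cenpj, also called CPAP, adds the microtubules of the new centriole and sets their length. Cenpj (ENSMUSG00000064128, chromosome 14, 18 exons in 48.7 kb) had 1666, 1370 and 1223 reads in libraries A, B and C, or 23.3, 21.1 and 23.8 RPM. It was the only 1 of the 10 genes that was highest in library C, and library B was lowest, with intervals of 22.5 to 25.2 in C and 20.0 to 22.3 in B. Its per-exon level of 4.67 was the highest of the 4 centriole genes here. Its partners in elongation, Cep120 and Spice1, had per-exon levels of 11.6 and 3.01. Cenpj holds Gm22431, a small RNA gene of 107 bases on the other strand, which was listed at 0.704 RPKM.

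Cep135 links the cartwheel to the centriole's microtubules. Cep135 (ENSMUSG00000036403, chromosome 5, 26 exons in 57.8 kb) had 1351, 1200 and 875 reads in libraries A, B and C, or 18.9, 18.5 and 17.1 RPM. The interval of A, 17.9 to 19.9, overlapped that of C, 15.9 to 18.2. Its per-exon level was 2.52.

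The centriole assembly list, which leaves these 4 genes out, held 18 genes, and all of them reached a per-exon level of 1, with a median of 4.54. As deposited, 9 of 18 reached 1 RPKM. Highest were the centrins Cetn3 (5.88 RPKM) and Cetn2 (4.21 RPKM) and the capping protein gene Ccp110 (4.12 RPKM), and Poc1a was lowest at 0.0761 RPKM. Cep152, Stil and Cep135 were thus below that list's median on the per-exon scale and Cenpj just above it.

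Cdk5rap2 holds gamma-tubulin ring complexes, the nucleators of microtubules, in the material around the centrioles and does so with pericentrin, the product of Pcnt. Cdk5rap2 (ENSMUSG00000039298, chromosome 4, 37 exons in 194 kb) had the most reads of the 10 genes, 7728, 6324 and 5447 in libraries A, B and C. At 108, 97.6 and 106 RPM, libraries A and C lay close together and B below them. The interval in B, 95.2 to 100.01, overlapped neither that in A, 106 to 110, nor that in C, 103 to 109. With 6.72% of its span in exons it was 14.9 times higher per kilobase of exon than as deposited, at 7.98. Pcnt had a per-exon level of 3.50.

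The 16 genes of the pericentriolar material and gamma-tubulin complex list all reached 1 on the per-exon scale, with a median of 9.33, and 9 of 16 reached 1 RPKM as deposited. Mzt1 (6.66 RPKM), Tubg1 (5.61 RPKM) and Tubg2 (2.74 RPKM), subunits of the ring complex, were highest, and Ninl lowest at 0.276 RPKM. Cdk5rap2, at 7.98, lay below that median. Its span also holds the pseudogene Ywhaq-ps3 on the same strand, listed at 0.0632 RPKM.

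Aspm holds the minus ends of microtubules at the spindle poles and is the gene most often mutated in the human condition. Aspm (ENSMUSG00000033952, chromosome 1, 28 exons in 39.3 kb) had 3078, 2258 and 1849 reads in libraries A, B and C, or 43.0, 34.8 and 36.04 RPM. Library A stood apart: its interval, 41.5 to 44.5, overlapped neither that in B, 33.4 to 36.3, nor that in C, 34.4 to 37.7. Its transcript is the longest here by coding length, 9.37 kb. Aspm ranked 2 as deposited, 4 per kilobase of exon and 6 per kilobase of coding sequence, where it had 4.05. The per-exon level of Aspm was 3.27.

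Wdr62 is a scaffold of the spindle pole that works with the kinase Aurora A and its activator Tpx2. Wdr62 (ENSMUSG00000037020, chromosome 7, 33 exons in 40.3 kb) had the fewest reads, 628, 510 and 376 in libraries A, B and C, or 8.77, 7.87 and 7.33 RPM. Library A was again highest, but at this depth its interval, 8.10 to 9.49, still touched that of C, 6.61 to 8.11. The per-exon level of Wdr62 was 1.39, against 5.65 for Aurka and 10.5 for Tpx2. It overlaps Thap8 on the other strand by 326 bases and holds the pseudogene Rps12-ps5. These were listed at 0.00436 and 0.0960 RPKM.

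In the list of the spindle pole and mitotic spindle, 18 of 19 genes reached a per-exon level of 1, with a median of 7.52, and 8 of 19 reached 1 RPKM as deposited. Cltc (5.71 RPKM), which bundles spindle fibres, Numa1 (3.09 RPKM), which ties the pole to dynein, and Ckap5 (2.85 RPKM), a microtubule polymerase, were highest. Insc, which orients the spindle, was lowest at 0.00174 RPKM. Aspm and Wdr62 both lay below the list's median.

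Nde1 binds Lis1, the product of Pafah1b1, and loads it onto the motor dynein. Nde1 (ENSMUSG00000022678, chromosome 16, 9 exons in 29.7 kb) had 2392, 1759 and 1345 reads in libraries A, B and C, or 33.4, 27.1 and 26.2 RPM. Library A, with an interval of 32.1 to 34.8, stood above both B, 25.9 to 28.4, and C, 24.8 to 27.7. Nde1 is the shortest of the 10 genes and was first on each of the 3 length scales, with 28.0 per kilobase of coding sequence. It overlaps Marf1 on the other strand by 77 bases. Marf1 was listed at 1.79 RPKM, above Nde1 itself, and no source used here says whether the counting used strand.

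Of its partners in the Lis1 and dynein list, all but Cenpf, at 3.57, had a higher per-exon level than Nde1, at 9.02. The 9 genes had a per-exon median of 39.6, led as deposited by Dynll1 (46.8 RPKM), Dctn2 (12.8 RPKM) and Dync1h1 (11.4 RPKM), with Dync1i1 lowest at 0.540 RPKM. Pafah1b1 itself had a per-exon level of 39.6.

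Mcph1 holds back condensin II until mitosis and takes part in the checkpoint that runs through Chek1. Mcph1 (ENSMUSG00000039842, chromosome 8, 14 exons in 208 kb) had 898, 831 and 603 reads in libraries A, B and C, or 12.5, 12.8 and 11.8 RPM, and the intervals of B, 11.97 to 13.7, and C, 10.8 to 12.7, overlapped. Mcph1 had the largest ratio of per-exon level to deposited level of the 10 genes, 26.7. Last as deposited, it was above 40.4% of protein-coding genes on that scale and above 50.1% per kilobase of exon, and ranked 5 of 10 per kilobase of coding sequence. Its span holds Angpt2, a blood vessel growth factor gene on the other strand, which was listed at 0.0103 RPKM, and among others the pseudogene Gm17149, listed at 0.142 RPKM. Against a per-exon level of 1.59 for Mcph1, the 11 condensin genes and partners of Mcph1 had a median of 5.60; all of them reached 1, and 5 of 11 reached 1 RPKM as deposited. Set (20.8 RPKM), Ncapd2 (6.41 RPKM) and Ncaph2 (5.01 RPKM) were highest and Atr lowest at 0.419 RPKM.

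Cit encodes citron, a kinase of the midbody that ends cytokinesis, and in neurons a shorter product without the kinase domain, which a value per gene does not separate. Cit (ENSMUSG00000029516, chromosome 5, 47 exons in 164 kb, 19 annotated transcripts) had 965, 987 and 569 reads in libraries A, B and C, or 13.5, 15.2 and 11.1 RPM. This was the widest spread of the 10 genes, 1.37 times, and the intervals of B, 14.3 to 16.2, and C, 10.2 to 12.04, did not overlap. Its per-exon level of 0.808 was the lowest of the 10 genes, but the exons of its many transcripts add up to 16.4 kb. Per kilobase of the longest transcript Cit had 1.39 and all 10 genes reached 1. The share of all genes that did so was not counted. Of the 16 cytokinesis and midbody genes, 15 reached a per-exon level of 1, with a median of 4.78, and 10 of 16 reached 1 RPKM as deposited. Rhoa (3.96 RPKM), Myh10 (3.44 RPKM) and Aurkb (2.84 RPKM) led. Kif14, a kinesin that binds citron and is itself a microcephaly gene, was lowest at 0.149 RPKM, with a per-exon level of 0.937.

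The 10 genes had a per-exon median of 2.29, and other genes of human primary microcephaly one of 6.03. Of 21 such genes 20 were matched by name, all but Trappc14, and 18 reached a per-exon level of 1. As deposited 9 of 20 reached 1 RPKM. The highest act outside the centrosome: Phc1 (6.82 RPKM), a Polycomb gene, Ncapd2 (6.41 RPKM), a condensin subunit, and Lmnb1 (5.46 RPKM), a nuclear lamin. The lowest was Cdk6 at 0.0692 RPKM. The 13 proliferation genes had a per-exon median of 10.01, with Pcna (24.5 RPKM), Ccnd2 (10.7 RPKM) and Mki67 (6.02 RPKM) highest as deposited and Ccne1 lowest at 0.534 RPKM.

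**Figure D2:**
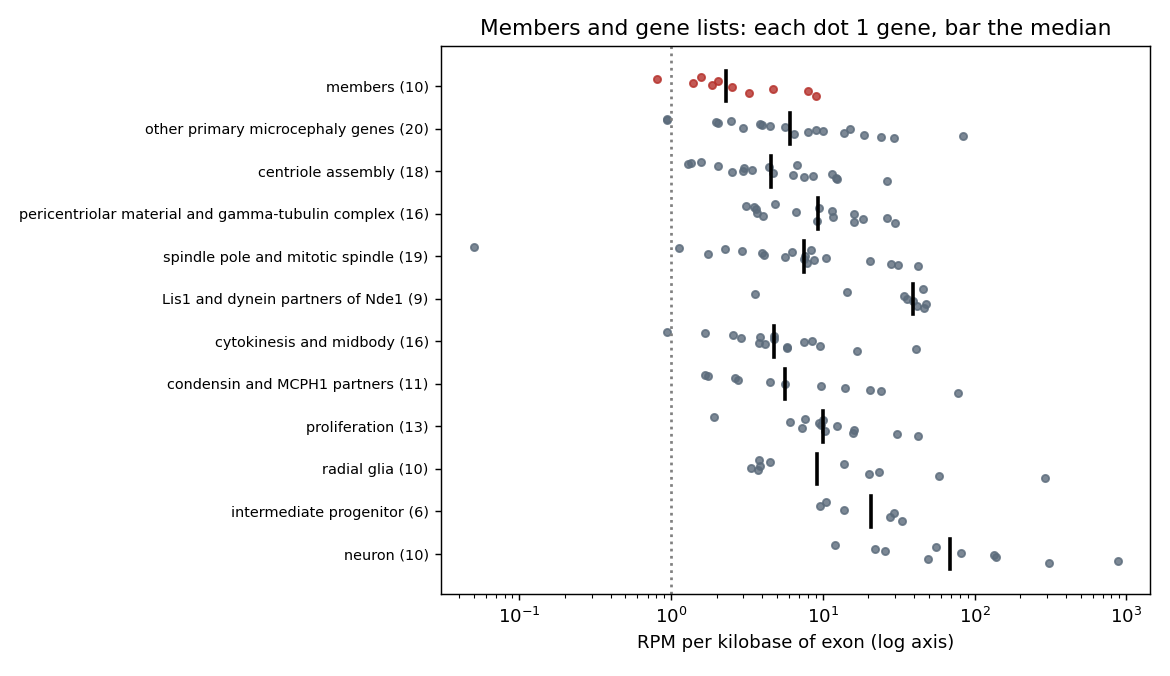
Per-exon level (RPM per kilobase of exon, log axis) of each gene in the 10 microcephaly genes (red) and in the gene lists, with list sizes in brackets, bars at the medians and a dotted line at 1. The 10 genes have the lowest median shown, 2.29, and their range of 0.808 to 9.02 lies inside that of the centrosome, spindle and cytokinesis lists combined.

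Several of the 10 genes belong to small families, and set against its nearest relative each was lower per kilobase of exon. Nde1 and Ndel1, which share the binding of Lis1, were alike as deposited, at 0.975 and 0.929 RPKM, and by library their ratio was 1.23, 0.980 and 0.940 in A, B and C. Per kilobase of exon, Nde1 was at 0.627 of Ndel1, and below it in 3 of 3 libraries (0.736, 0.585 and 0.561). Ndel1 reads stayed within 46.1 to 47.4 RPM over the libraries, so the spread of the ratio came with the spread of Nde1.

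Cdk5rap2 stood at 0.548 of Pde4dip, the gene of myomegalin, as deposited (0.537 against 0.980 RPKM) and at 0.691 per kilobase of exon, and was lower in 3 of 3 libraries on both scales. Wdr62 was further below its relative Mapkbp1, a scaffold of JNK signalling: 0.198 against 1.15 RPKM as deposited, and 0.168 of it per kilobase of exon. That ratio was 0.194, 0.158 and 0.153 in libraries A, B and C. Cep135 and its relative Tsga10 had 0.314 and 0.276 RPKM as deposited, and 2.52 and 2.89 per kilobase of exon. Reads per library could not be solved for Tsga10, so its per-exon level assumes that the authors' length was the annotated gene span. Cit was at 0.204 of Rock1 and 0.132 of Rock2, kinases that resemble citron in their kinase domain, per kilobase of exon, and lower than each in 3 of 3 libraries. The reads of Rock1 and Rock2 were solved with a length other than the gene span, found by trying several, so they are less certain.

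**Figure D3:**
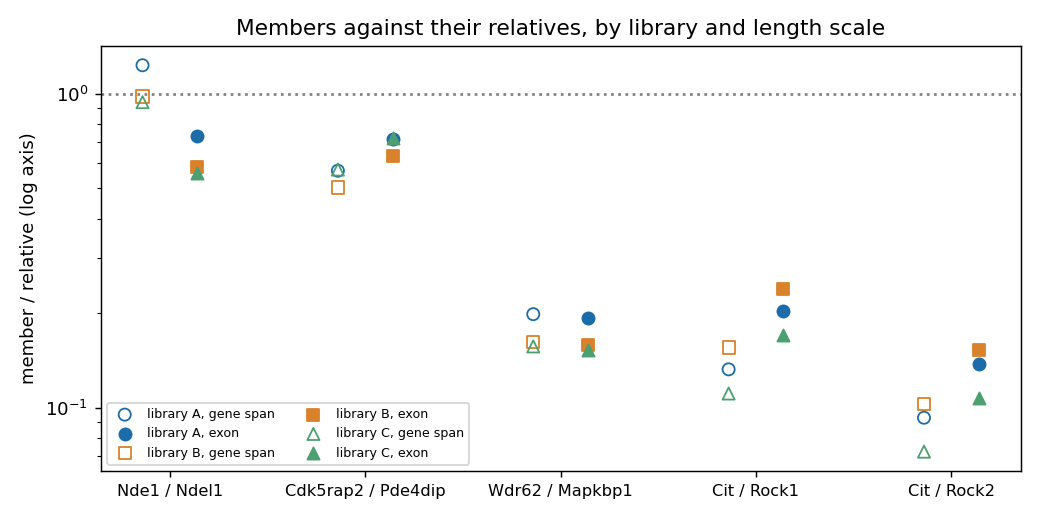
Ratio of a microcephaly gene to its relative in libraries A, B and C, per kilobase of gene span (open symbols) and per kilobase of exon (filled symbols), on a log axis with a dotted line at equal levels. Only Nde1 over Ndel1 crosses that line, in library A on the span scale (1.23), and all filled symbols lie below it.

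Library A was highest in RPM for 7 of the 10 genes (Aspm, Cdk5rap2, Wdr62, Cep152, Cep135, Stil and Nde1) and lowest for 0. It was the highest library for 46.2% of the 5241 protein-coding genes with 1000 to 30000 recovered reads. Genes with more reads, or whose reads were not recovered, are not among the 5241. The highest library was at 1.2 times the lowest or more for 3 of the 10 genes, Cit, Nde1 and Aspm, and for 10.8% of those 5241 genes. The median of this ratio was 1.158 over the 10 genes and 1.08 over the 5241. For 6 of the 10 genes the counting intervals of the highest and lowest library did not overlap, beside 39.9% of the 5241. For the other 4, Mcph1, Wdr62, Cep152 and Cep135, they did. Whether intervals overlap depends on reads as well as on the ratio: Wdr62 had a ratio of 1.197 with 1514 reads, and Cdk5rap2 1.11 with 19499 reads.

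The 4 genes furthest above their mean in library A were Nde1, Aspm, Stil and Wdr62, named here after their values were seen. Relative to each gene's mean over the 3 libraries, Nde1 was at 1.155, 0.938 and 0.906 in A, B and C, Aspm at 1.13, 0.918 and 0.949, Stil at 1.11, 0.938 and 0.947, and Wdr62 at 1.10, 0.985 and 0.917. Several lists were also highest in library A. The median of the 4 proliferation genes whose reads were recovered, of 13, was 1.11, 0.959 and 0.946, with Top2a at 1.14, 0.929 and 0.932; 3 of 4 were highest in library A, and Ccne1 was not. The 10 recovered genes of the spindle list had medians of 1.08, 0.947 and 0.973, and 8 of 10 were highest in A. The 4 recovered intermediate progenitor genes had 1.09, 0.962 and 0.925, and the 5 recovered radial glia genes had 1.05, 0.977 and 0.962, all 9 of them highest in A. Of the neuron list reads were recovered for Snap25 alone, at 0.980, 1.02 and 0.996. Medians in library A were 1.09 for the 5 recovered cytokinesis genes, 1.10 for the 4 condensin genes and partners of Mcph1, 1.06 for the 9 centriole assembly genes, 1.03 for the 7 pericentriolar genes and 1.05 for the 8 other microcephaly genes. Lists not defined by division varied. The 4 recovered endothelial genes had medians of 1.08, 0.920 and 1.01, with 3 of 4 highest in A. The 3 recovered microglial genes, at only 2.46 to 3.83 RPM, had 1.09, 1.05 and 0.903, with 2 of 3 highest in A. The 4 recovered red blood cell genes had 0.960, 1.03 and 1.02, with 0 of 4 highest in A. The part of any cell type in the levels of the 10 genes was not tested.

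Cit was highest in library B and lowest in C, at 1.02, 1.15 and 0.836 in A, B and C. Mcph1 had the same order with a narrower spread, at 1.01, 1.04 and 0.950. The 4 recovered genes of the ganglionic eminence and interneuron list, of 7, had medians of 1.07, 1.10 and 0.840, and all 4 were lowest in library C. Gad1, the enzyme that makes the transmitter GABA, was at 1.02, 1.162 and 0.823, and Gad2 at 1.07, 1.14 and 0.795. The other two, the transcription factor genes Dlx1 at 1.073, 1.069 and 0.858 and Dlx5 at 1.13, 0.994 and 0.875, were highest in A. Their part in the level of Cit was not tested. The 3 recovered microglial genes were also lowest in C, and the 4 recovered red blood cell genes had medians of 0.960, 1.03 and 1.02.

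**Figure D4:**
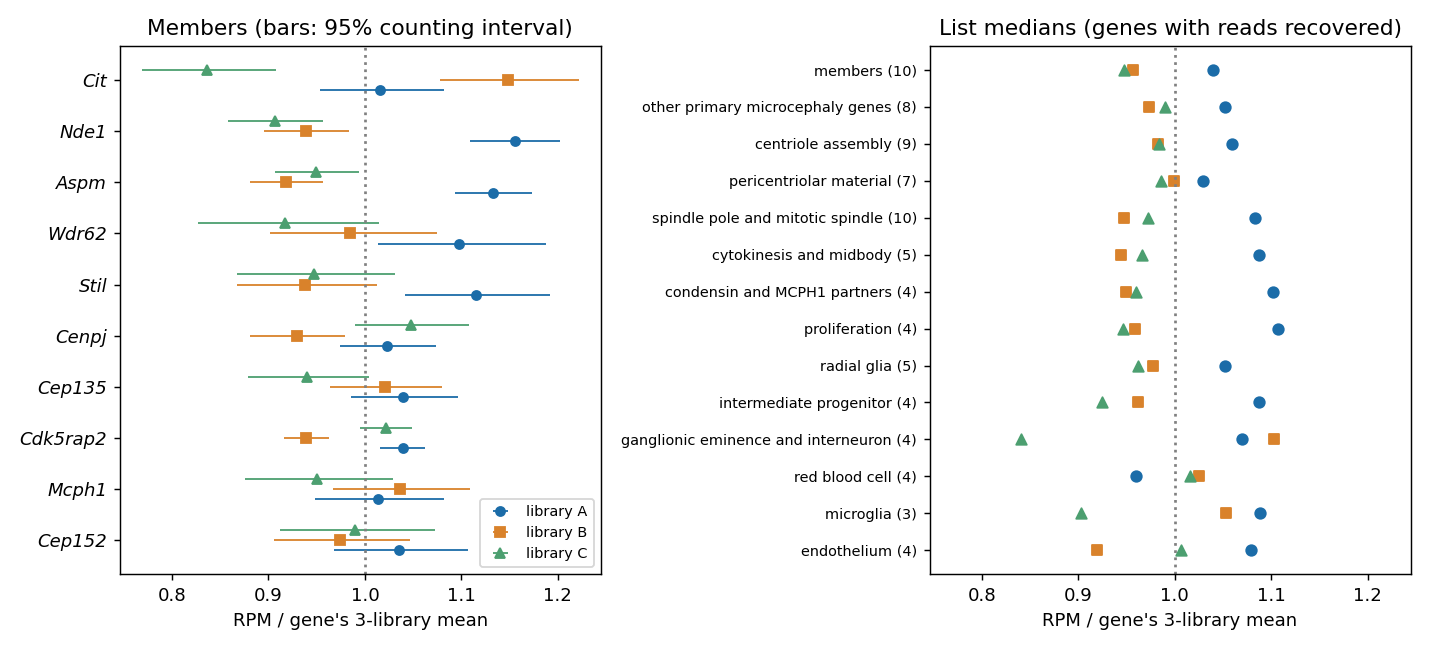
RPM in libraries A, B and C divided by the gene's mean over the 3 libraries, for the 10 genes with exact Poisson 95% intervals (left) and as medians over the genes of each list whose reads were recovered, numbers in brackets (right). Library A is highest for 7 of the 10 genes and for every list median shown except those of the interneuron and red blood cell lists. Cit, Mcph1 and the interneuron median are highest in B and lowest in C.

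Promoters are shown for the 4 of the 10 genes with the most CCAAT boxes, a short element that the factor NF-Y binds and that is common before genes of the cell cycle. RefSeq (GRCm38.p6) gave a promoter for 9 of the 10 genes, not for Mcph1. In the 250 bases before the start, CCAAT was searched on both strands, where the other strand reads ATTGG, and boxes are in capitals below, 5′ to 3′ on the strand of the gene. For Wdr62 the first of 2 listed starts is used. The number 3 as the limit for printing was set after the boxes were counted.
Aspm, chr1:139454523-139454772, plus strand: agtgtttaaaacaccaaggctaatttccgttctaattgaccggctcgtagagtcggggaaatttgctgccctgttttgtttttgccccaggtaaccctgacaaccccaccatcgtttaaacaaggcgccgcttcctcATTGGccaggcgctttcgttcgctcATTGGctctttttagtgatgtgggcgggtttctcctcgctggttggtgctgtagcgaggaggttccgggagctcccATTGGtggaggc
Stil, chr4:114999868-115000117, plus strand: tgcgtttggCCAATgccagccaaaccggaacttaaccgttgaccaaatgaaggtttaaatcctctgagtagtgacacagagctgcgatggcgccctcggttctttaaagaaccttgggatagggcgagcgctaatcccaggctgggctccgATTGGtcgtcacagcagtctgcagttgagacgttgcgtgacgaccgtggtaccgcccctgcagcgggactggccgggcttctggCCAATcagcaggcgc
Wdr62, chr7:30280422-30280671, minus strand: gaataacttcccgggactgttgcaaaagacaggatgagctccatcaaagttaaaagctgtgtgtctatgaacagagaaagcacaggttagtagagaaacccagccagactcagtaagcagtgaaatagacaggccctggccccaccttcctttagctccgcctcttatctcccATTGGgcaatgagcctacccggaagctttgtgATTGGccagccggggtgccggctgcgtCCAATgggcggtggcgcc
Cep152, chr2:125625114-125625363, minus strand: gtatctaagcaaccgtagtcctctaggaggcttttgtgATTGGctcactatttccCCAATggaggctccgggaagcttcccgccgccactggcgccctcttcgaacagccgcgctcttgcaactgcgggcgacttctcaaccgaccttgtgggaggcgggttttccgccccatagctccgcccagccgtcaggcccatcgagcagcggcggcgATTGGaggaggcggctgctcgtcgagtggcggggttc

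At least 1 box lay before 6 of the 9 genes, the 4 above with Cep135 and Nde1, and before 37.5% of all 27025 genes with a promoter. At least 2 lay before 4 of the 9 genes and before 11.5% of all. At least 3 lay before the same 4 of the 9 genes and before 3.23% of all. Since the limit of 3 was set after counting, the last share is no independent comparison. In Aspm the boxes began 113, 88 and 12 bases before the start, all read on the other strand, and the closest pair were 25 bases apart. In Wdr62 they began 77, 45 and 18 bases before it, in Stil 241, 99 and 15, and in Cep152 212, 195 and 37. Cit, Cenpj and Cdk5rap2 had 0 boxes. TTTGAA, the core of another element of cell cycle promoters, was in the same window of 0 of the 9 genes and of 18.3% of all. Any of TTTCCCGC, TTTGGCGC, TTTCGCGC and TTTGCCGC, forms of the site of the E2F factors, again on both strands, was in 1 of the 9 genes and 2.16% of all. That gene was Wdr62, at its second start and not at the first, the one shown above, so this count took in both starts. A match describes these letters only.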

How the data were processed

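RNA of the embryonic cortex was sequenced from TruSeq libraries on an Illumina instrument, per the labels' protocols. The authors deposited 1 column of RPKM, their mean over 3 libraries. The submitters' processing notes name HTSeq 0.6.0, DESeq 1.16.0, TopHat2 2.0.9, Bowtie2 2.1.0 and Cuffdiff 2.0.2, and the build mm9 (NCBIM37), without a role. Strand, and how reads in introns or with several matches were counted, are not given in the sources used here. Depth was 71.6, 64.8 and 51.3 M reads per library.

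Symbols, spans and exons came from GENCODE M21 on GRCm38, a later build, so gene coordinates are not given. Spans and exon counts can differ from the authors' annotation. The library totals were found from genes with few reads, and reads per library were then solved from the 15 printed digits, with a tolerance of 1.5 units of the last digit. A solution was kept if it was the only one within 0.6 to 1.4 of the mean. For 7 of the 10 genes the authors' length was the gene span, end minus start. Aspm and Stil were solved with a length 2 bases below and 41 above it, among 101 lengths tried near the span. Cenpj was solved with 45.1 kb, 1 of 13 distances tried between annotated transcript ends. Of all genes with 1000 to 5000 reads, 55.4% had a solution, and 0.120% did with 1 wrong length. For 5000 to 10000 reads, the range of Aspm, the latter was 0.0801%. For 10000 to 30000 reads, a range that holds Cdk5rap2, Rock1 and Rock2, it was 0.447%. A wrong solution is likelier when many lengths are tried, so the reads of Aspm, Stil and Cenpj are less certain than those of the other 7 genes. The same holds for Rock1 and Rock2, solved with 1 of 28 and 1 of 18 distances tried between annotated transcript ends. The search was tested on simulated data. Per-exon levels of Tsga10, and of all genes other than the 10 and their relatives, used the M21 span. Intervals are exact Poisson 95%, for counting error only.

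The members, lists and relatives were chosen with earlier results of these data known. Named are the 10 genes, their relatives, of each gene list the 3 highest and the lowest by deposited RPKM, and of marker lists the highest and the lowest. Binding partners and the genes named by library beyond these were chosen after their values were seen. Alternatives were other length scales, thresholds, rescaled sums, rank backgrounds, pseudocounts and leaving out each library. Python 3.11.15, numpy 2.4.6, pandas 2.3.3, scipy 1.17.1, numba 0.67.0 and matplotlib 3.10.9 were used.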

Additional observations from a re-analysis of the deposited data

How the results depend on the processing

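The count of genes at 1 RPKM or more depended most on the scale. It was 0 of 10 as deposited, 9 per kilobase of exon, 9 with all values rescaled to sum to 1000000, 9 with the same without mitochondrial genes, and 4 at a threshold of 0.5 RPKM. It stayed at 0 at a threshold of 2 RPKM and without the highest gene, and ranged from 0 to 2 when each library was left out: without library A it was 0, without B 2 (Aspm and Nde1) and without C 1 (Nde1). The median of 0.282 RPKM became 2.29 per kilobase of exon, 3.51 rescaled, 4.54 rescaled without mitochondrial genes, 0.250 without the highest gene, 0.317 as a mean on the log2(RPKM + 0.1) scale and 0.409 over genes at 0.1 RPKM or more, and 0.272 to 0.290 when each library was left out. Per kilobase of exon the count of 9 became 10 with the longest transcript and with the coding length and stayed at 9 without any 1 library. The median of 2.29 became 2.94 with the longest transcript, an alternative chosen after seeing the data, and 4.53 with the coding length, and ran from 2.24 to 2.33 with a library left out. By log2 ratio, Nde1 over Ndel1 turned to -0.67 per kilobase of exon and -0.70 in reads with no length, and Cep135 over Tsga10 to -0.20 and -0.77. These 2 pairs aside, no ratio changed sign. Nde1 and Aspm were highest in library A. Other lengths, sums and thresholds change the values by construction. Shares of all genes were counted only at 1 RPKM as deposited and at 1 per kilobase of exon. The counts on other scales and thresholds thus have no background, and whether they are high or low was not tested. No paired analysis was possible because 1 group is used and library labels are not known.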
